A study of Mus musculus with 106 samples.

Results

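Huntingtin is the protein whose gene carries the expanded CAG repeat of Huntington's disease (HD). The 8 genes described here are *Htt*, which encodes it, and 7 others. *Hap1*, *Hip1*, *F8a*, *Rasd2*, *Pacsin1* and *Zdhhc17* encode proteins that bind or modify it, and *Hip1r* is the paralog of *Hip1*. The 8 genes were chosen by name, with earlier results of these data known. They are 8 of the 55401 mouse genes in the deposited table, of which 21897 code for proteins. Every library held mRNA of all 8, the lowest level of any being 7.78 CPM (read counts scaled to the size of the library) for *Hip1* in a control cerebellar Gad2+ sample.

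Mice heterozygous for the Hdh Q200 allele (Hdh Q7/Q200, HD) were compared with Hdh Q7/Q7 controls at about 9 months of age, on a background over 99% 129S4. Mice carried a Cre driver (Gad2-IRES-Cre for GABAergic neurons, vGluT2-IRES-Cre for glutamatergic neurons, PV-IRES-Cre for parvalbumin neurons, or an SST line whose driver is not described with the data) together with RiboTag, a hemagglutinin tag on ribosomal protein Rpl22. From 24 control and 21 HD mice, 67 immunoprecipitations (IPs) of tagged ribosomes and 39 total RNAs of the same tissues were sequenced. Cerebrum here is the brain without cerebellum and olfactory bulb, and PV+ and SST+ IPs are cerebral.

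The IP sets held 6 control and 6 HD libraries for cerebral Gad2+, cerebellar Gad2+ and cerebral vGluT2+ neurons, 5 and 6 for cerebellar vGluT2+, 6 and 5 for PV+, and 5 and 4 for SST+. Total RNA came from 13 control and 12 HD cerebral and from 7 and 7 cerebellar samples. A total of 23 mice gave an IP of each region. Libraries held 21905238 to 107753596 counts (median 35866735), and all levels below are CPM normalised over all 106 libraries.

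GABAergic markers, *Sst* and *Pvalb* followed the labels of the IPs. The GABAergic markers *Gad1*, *Gad2* and *Slc32a1* summed to control medians of 2836 CPM in cerebral Gad2+, 2572 in PV+, 1366 in SST+ and 2942 in cerebellar Gad2+ IPs, against 77.6 in cerebral and 171 in cerebellar vGluT2+ IPs. *Sst* had a control median of 1446 CPM in SST+ IPs and 210 in cerebral total RNA, and *Pvalb* had one of 616 in PV+ IPs and 146 in cerebral total RNA. The glutamatergic markers *Slc17a6* (which encodes vGluT2) and *Slc17a7* summed to control medians of 2185 CPM in cerebral vGluT2+ IPs and 1771 in cerebral total RNA, against 210 in cerebral Gad2+, 921 in PV+ and 948 in SST+ IPs. *Slc17a6* alone followed the labels only in part: its log2 ratio to total RNA was 1.02 in cerebral vGluT2+, 1.19 in PV+ and 1.09 in SST+ IPs. In cerebral Gad2+ IPs it was -1.79, in cerebellar Gad2+ IPs -1.04 and in cerebellar vGluT2+ IPs 1.52. The SST+ IPs also held oligodendrocyte markers (4 genes, control median of the sum 1661 CPM), below the 4611 of cerebral total RNA and above the 469 of cerebral Gad2+ IPs. Of the 4 genes, *Mobp* was called higher in SST+ IPs than in total RNA. *Mbp*, *Mog* and *Cnp* were called lower, *Mog* having the lowest log2 ratio (-1.87).

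Some libraries went against their labels. PV+ HD replicate 3 held 1436 CPM of the Purkinje markers *Pcp2*, *Calb1* and *Car8*, where the other 4 PV+ HD libraries held 60.0, 84.9, 87.4 and 97.9, and 348 CPM of granule cell markers against 41.6 to 96.5 in those 4. Without it the log2 difference of *Htt* between HD and control PV+ IPs was -0.48 in place of -0.42, and edgeR called no member with or without it, while DESeq2 called *Htt* with it. Markers of the other region were uneven in other sets too. In cerebral Gad2+ IPs *Pcp2* ran from 0.0828 to 72.8 CPM in controls and from 0.134 to 56.4 in HD. In control cerebellar vGluT2+ IPs *Sst* ran from 0.214 to 63.5 CPM and *Tac1* from 0.123 to 24.3. In HD they reached 17.8 and 3.43. The Y-linked mRNAs *Ddx3y*, *Eif2s3y*, *Kdm5d* and *Uty*, which only male tissue makes, were present in 46 libraries (12.5 CPM or more) and near 0 in the others (0.0753 CPM or less). In the Gad2 line 4 of 6 control and 2 of 6 HD IPs of each region held them. Its total RNA had 2 of 3 and 0 of 3 in the cerebellum, and 1 of 3 and 2 of 3 in the cerebrum. PV+ IPs had 2 of 6 and 3 of 5, and SST+ IPs 2 of 5 and 3 of 4. The vGluT2+ IPs had 1 of 5 and 2 of 6 in the cerebellum and 2 of 6 in both genotypes in the cerebrum.

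Of 36 mice with over 1 library, 3 control mice of the vGluT2 line had libraries that differed in Y-linked mRNA. One had 0 CPM in the cerebellar IP and 28.6 in the cerebral IP (IP replicate 1), another 101 and 0 (replicate 3), and the last 0 in the cerebellar IP against 63.7, 19.0 and 97.6 in its cerebral IP, cerebral total RNA and cerebellar total RNA (replicate 4). For these mice the labels and the values contradict each other, and for the first 2 mice which library is at odds cannot be told from them. In the last mouse the cerebellar IP stands against the other 3 libraries. Comparisons of members that use their libraries were also fitted without the 3 mice, and each call that this changed is named below. The orders, marker sums and gene lists were not made again without them.

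Huntingtin is a large scaffold protein found in all cells, and its partners serve the traffic of vesicles, the internalisation of membrane and the modification of huntingtin itself. Neurons depend on this traffic over long axons, and striatal projection neurons, the cells most affected in the disease, make much *Rasd2*, also named Rhes for Ras homolog enriched in striatum. In the knock-in mouse an expanded repeat is placed in one copy of the mouse gene, so that mRNA of both alleles adds to the level of *Htt*. Gene counts as deposited do not separate the alleles.

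*Htt* lies on chromosome 5 (34761740 to 34912534, plus strand; ENSMUSG00000029104.15) and has 67 exons. The start of its coding sequence is shown because it holds the repeat that is expanded in the Hdh Q200 allele. It lies in exon 1 at chr5:34761907-34761990, plus strand, of GRCm38, with the repeat in capitals (7 glutamine codons, 6 CAG and 1 CAA, codons 18 to 24 of the reference mouse allele).

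Htt: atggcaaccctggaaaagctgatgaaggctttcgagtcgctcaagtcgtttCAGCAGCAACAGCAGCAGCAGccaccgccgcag

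The partners lie on other parts of chromosome 5 or on other chromosomes. *Hip1* (5:135406531 to 135545120, minus strand; ENSMUSG00000039959.13) and *Hip1r* (5:123973628 to 124005558, plus; ENSMUSG00000000915.15) share the chromosome of *Htt*. *Hap1* is on chromosome 11 (100347327 to 100356128, minus; ENSMUSG00000006930.15), *F8a* on X (73228291 to 73230795, plus; ENSMUSG00000078317.6) and *Rasd2* on 8 (75213944 to 75224113, plus; ENSMUSG00000034472.13). *Pacsin1* is on 17 (27655509 to 27711482, plus; ENSMUSG00000040276.15) and *Zdhhc17* on 10 (110941780 to 111010140, minus; ENSMUSG00000035798.14). Exons of *Hip1r* overlap exons of *Vps37b* on the opposite strand, which a stranded library kit keeps apart, and of the unclassified gene *Gm37939* on the same strand. No exon of the other 7 members overlaps an exon of another gene, though *F8a*, a gene of a single exon, lies within *Xlr5a* on the opposite strand.

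Levels of different genes can be compared only per length of mRNA, here as CPM per kilobase (kb). By control means *Pacsin1* was the most abundant member in 6 of the 8 sample sets, from 104 CPM per kb in cerebellar total RNA to 175 in cerebellar vGluT2+ IPs. *Rasd2* came first in cerebral Gad2+ IPs (168 CPM per kb) and *Hap1* in SST+ IPs (102). *Hip1*, an adaptor of clathrin-coated vesicles, was the lowest in all 8 sets (1.43 to 5.73). *Htt* itself ranged from 4.78 CPM per kb in cerebral Gad2+ IPs to 8.73 in cerebellar total RNA, and only *Hip1r* (10.3 to 16.3) had a smaller ratio of highest to lowest mean.

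The order of the sample sets was then asked for each gene, testing each neighbour in the order with an exact permutation test on log2 levels of control libraries. Of 56 neighbouring pairs 9 differed and 47 did not (Benjamini-Hochberg adjusted p of 0.05 or less; the smallest p that 6 against 6 libraries can give is 0.00216). These tests took libraries as independent, though some sets share mice. For *Htt* the order from high to low was cerebellar total RNA, cerebral total RNA, cerebellar vGluT2+, SST+, PV+, cerebellar Gad2+, cerebral vGluT2+ and cerebral Gad2+, and no neighbours in it differed. With size factors of DESeq2 in place of TMM, 2 of the 8 genes kept the same order and 11 neighbouring pairs differed. *Hip1r*, *F8a* and *Pacsin1* likewise had no neighbours that differed.

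*Rasd2*, a small GTP-binding protein that promotes sumoylation of huntingtin, had the steepest order. Its log2 level was higher in cerebral Gad2+ IPs than in cerebral total RNA by 1.24 (exact permutation, adjusted p = 0.00103) and higher in cerebral total RNA than in SST+ IPs by 0.65 (adjusted p = 0.0109). Further down, PV+ IPs exceeded cerebellar vGluT2+ IPs by 1.13 (adjusted p = 0.0173), and these exceeded cerebellar total RNA by 0.60 (adjusted p = 0.0173). The steps from SST+ to cerebral vGluT2+ and on to PV+ IPs, and from cerebellar total RNA to cerebellar Gad2+ IPs, were not found to differ.

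The remaining steps in the orders concerned 3 genes. *Hap1* (huntingtin-associated protein 1, an adaptor of motor transport) was 0.83 log2 higher in cerebellar vGluT2+ than in cerebellar Gad2+ IPs (exact permutation, adjusted p = 0.0173). *Hip1* was 0.56 higher in cerebellar than in cerebral total RNA (adjusted p = 0.000722) and 0.50 higher there than in cerebellar vGluT2+ IPs (adjusted p = 0.0211). *Zdhhc17*, a palmitoyltransferase of huntingtin, was 0.65 higher in cerebellar vGluT2+ than in cerebellar Gad2+ IPs (adjusted p = 0.0173) and 0.78 higher in SST+ IPs than in cerebral total RNA (adjusted p = 0.0211).

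The protein-coding genes with the profile most like each member were sought over the mean log2 levels of 12 control sets (6 IP sets, and total RNA of each line and region), by Pearson correlation and without a test. *Htt* was followed most closely by *Myo1c* (r = 0.972), *Amt* (0.950) and *Rhbdf1* (0.943), *Hap1* by *Fbxo25* (0.979), *Resp18* (0.962) and *Cgref1* (0.960). For *Hip1* these were *Phf19* (0.969), *Cbx2* (0.967) and *Abhd5* (0.963), and for *Hip1r*, its paralog, *Rundc3a* (0.951), *Scap* (0.939) and *Taf6* (0.936). *F8a* (huntingtin-associated protein of 40 kDa) had *Poldip3* (0.989), *Pqbp1* (0.983) and *Ranbp3* (0.974).

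With this many genes compared over only 12 sets, high values are found for any gene, and they describe a profile only. *Rasd2* ran with *Rxrg* (r = 0.985), *Sstr5* (0.984) and *Gpr6* (0.983). *Pacsin1*, a membrane-bending protein of endocytosis, had the weakest matches with *Smg9* (0.936), *Eps15l1* (0.931) and *Mgst3* (0.924), and *Zdhhc17* the closest, with *Ddx3x*, *Tigd2* and *Copb1* (0.992 each).

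Each IP was next compared with total RNA of its region, as log2 ratios over both genotypes. A gene is called here, and below, where edgeR gave an adjusted p of 0.05 or less over all genes tested. In cerebral Gad2+ IPs all 8 members were called (7 by DESeq2, which lost *Pacsin1*; 68.0% of all genes tested; median log2 ratio of members 0.24, of all genes 0.04), in PV+ IPs 7 (76.2%; medians -0.38 and -0.01), in SST+ IPs 7 (69.7%; -0.31 and -0.02) and in cerebral vGluT2+ IPs 7 (68.5%; -0.36 and 0.03). In the cerebellum 3 members were called in Gad2+ IPs (67.4%; -0.02 and 0.04) and 6 in vGluT2+ IPs (68.3%; 0.30 and 0.00). The share of members called was at or above that of all genes, except in cerebellar Gad2+ IPs.

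*Htt* was depleted in IPs or level with total RNA and was nowhere enriched. The log2 ratio was -0.74 in cerebral Gad2+ (adjusted p = 5.35e-10), -0.58 in cerebral vGluT2+ (1.90e-08), -0.35 in cerebellar Gad2+ IPs (0.00409) and -0.21 in those of cerebellar vGluT2+ neurons (0.0496). The last of these was called under none of 6 alternatives (adjusted p 0.0717 to 0.567). PV+ and SST+ IPs gave -0.06 and -0.07, neither called.

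*Hip1* and *Zdhhc17* went in opposite directions in all 6 sets. The ratio of *Hip1* was negative in each, at -1.27 in cerebral Gad2+, -0.86 in PV+, -0.39 in SST+, -1.25 in cerebral vGluT2+, -1.94 in cerebellar Gad2+ IPs and -1.16 in those of cerebellar vGluT2+ neurons (adjusted p 3.96e-15 in the lowest ratio and 0.00125 in the weakest). That of *Zdhhc17* was positive in each, at 0.76, 0.85, 0.77, 0.77, 0.45 and 0.83 in the same order (adjusted p 2.60e-05 in PV+ and 0.0118 in cerebellar Gad2+ IPs). Against total RNA of the same line *Zdhhc17* was not called in cerebellar Gad2+ IPs (0.32, adjusted p = 0.126), and with the mouse as a block *Hip1* was not called in SST+ IPs (-0.30, adjusted p = 0.0814).

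The ratios of the other 5 genes varied among the sets. *Rasd2* was enriched in cerebral Gad2+ IPs (1.32, adjusted p = 7.90e-17), which include striatal projection neurons, and depleted in PV+ (-0.83), SST+ (-0.52) and cerebral vGluT2+ IPs (-0.74), with -0.12 and 0.18, not called, in the cerebellum. *Hap1* was enriched in cerebral Gad2+ (0.54), SST+ (0.35) and cerebellar vGluT2+ IPs (0.82), and lower in PV+ (-0.42) and, at an adjusted p of 0.0490 (range over 6 alternatives 0.00472 to 0.132), in cerebral vGluT2+ IPs (-0.16). *Pacsin1* was above total RNA in cerebral Gad2+ (0.19), PV+ (0.37), cerebral vGluT2+ (0.27) and cerebellar vGluT2+ IPs (0.42), and below it in SST+ IPs (-0.42).

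A second pair of genes shared a sign in the cerebrum only in part. *F8a* was enriched in cerebral Gad2+ (0.29) and cerebellar vGluT2+ IPs (0.70), depleted in PV+ (-0.58) and SST+ IPs (-0.61), and not called in cerebral vGluT2+ (0.18) and cerebellar Gad2+ IPs (-0.01). *Hip1r* was depleted in the 4 cerebral sets (-0.51 in Gad2+, -0.34 in PV+, -0.23 in SST+ and -0.55 in vGluT2+ IPs) and not called in the cerebellum (-0.03 and -0.12).

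Some of these calls changed in other fits, and why was not tested. Against total RNA of the same line *Pacsin1* was not called in cerebral Gad2+ (0.27, adjusted p = 0.111) and cerebral vGluT2+ IPs (0.15, 0.184), nor *Hap1* in cerebral vGluT2+ (-0.25, 0.0505) and *Hip1r* in SST+ IPs (-0.25, 0.0783), while *F8a* in cerebral Gad2+ IPs was 0.54. With the mouse as a block *Pacsin1* was not called in cerebral (0.13, adjusted p = 0.211) and cerebellar vGluT2+ IPs (0.34, 0.0661), *Hap1* in cerebral vGluT2+ (-0.24, 0.132) and SST+ IPs (0.22, 0.0810) and *Hip1r* in PV+ IPs (-0.22, 0.0631), and *Hap1* was called in cerebellar Gad2+ IPs (0.23, 0.0495). *Hap1* in cerebral vGluT2+ IPs was also not called without a filter (adjusted p = 0.0673) and without the 3 mice (adjusted p = 0.0664).

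Direct comparisons between cell types were fitted over both genotypes. Between cerebral vGluT2+ and Gad2+ IPs 2 members were called (41.5% of all genes tested), *Hap1* (-0.66) and *Rasd2* (-2.02), both lower in vGluT2+ IPs, while *Htt* at 0.19 was not (adjusted p = 0.0625). Between PV+ and cerebral Gad2+ IPs 5 were called (67.8%): *Htt* 0.60 and *Hip1* 0.32 were higher in PV+ IPs, and *Hap1* -1.03, *F8a* -0.94 and *Rasd2* -2.22 lower (adjusted p 6.66e-16 for *Rasd2*, 0.00174 for *Hip1*).

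Between SST+ and PV+ IPs 4 were called (38.3%), *Hap1* 0.75, *Hip1* 0.44 and *Rasd2* 0.29 (adjusted p = 0.0121) being higher in SST+ IPs and *Pacsin1* (-0.81) lower. In controls only, *Hip1* (0.35, adjusted p = 0.0686) and *Rasd2* (0.32, 0.0543) were not called. *Htt* was not called between these interneuron sets (-0.03). In the cerebellum 6 members were called between vGluT2+ and Gad2+ IPs (69.3%), all of them higher in vGluT2+ IPs: *Hap1* 0.80, *Hip1* 0.85, *F8a* 0.81, *Rasd2* 0.36, *Pacsin1* 0.41 and *Zdhhc17* 0.46 (adjusted p 6.76e-08 for *Hap1*, 0.0276 for *Rasd2*). *Rasd2* was not called there without the 3 mice (0.30, adjusted p = 0.0993), which leaves 5 members, and was 0.84 in controls only. *Htt* at 0.21 was not called there (adjusted p = 0.0927).

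Regions differed most in *Rasd2*. Cerebellar against cerebral Gad2+ IPs gave 4 members called (65.6%): *Rasd2* -4.19 (adjusted p = 4.25e-21), *Hap1* -1.94 and *F8a* -0.35 were lower in the cerebellum and *Htt* 0.55 higher. For vGluT2+ IPs 7 were called (72.6%), with *Rasd2* -1.83 and *Hap1* -0.51 lower in the cerebellum, and *Htt* 0.55, *Hip1* 0.70, *F8a* 0.52, *Pacsin1* 0.23 and *Zdhhc17* 0.61 higher. In total RNA 4 were called (54.8%), *Hap1* -1.55, *Rasd2* -2.72 and *Hip1r* -0.42 lower and *Hip1* 0.47 higher in the cerebellum. *Htt* was thus higher in the cerebellum in both kinds of neuron and not called in total RNA (0.02). In controls only, *F8a* was not called between the Gad2+ IPs (-0.33, adjusted p = 0.0682), nor *Hap1* (-0.33, 0.0959) and *Pacsin1* (0.23, 0.106) between the vGluT2+ IPs, while *Zdhhc17* was called in total RNA (0.80 in place of 0.36, adjusted p = 0.0205), as it was with the mouse as a block (0.82, 0.00978).

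HD was compared with control within each IP set. In cerebral Gad2+ IPs edgeR called 0 members (0.0279% of all genes tested, 4 of 14342), with 3 members below an unadjusted p of 0.05 (9.15% of all genes) and 0 called by DESeq2 (0.523%). In PV+ IPs edgeR called 0 (0.034%), 3 had an unadjusted p below 0.05 (4.28%) and DESeq2 called 1, *Htt* (0.287%). In SST+ IPs edgeR called 0 (0.0%), 1 had an unadjusted p below 0.05 (1.41%) and DESeq2 called 0 (0.0136%). In cerebellar Gad2+ IPs edgeR called 0 (0.0142%), 1 had an unadjusted p below 0.05 (2.30%) and DESeq2 called 0 (0.156%).

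The vGluT2+ sets each had 1 member called. In cerebral vGluT2+ IPs this was *Htt*, the only one of 14354 genes tested to be called (0.00697%; 3 members at an unadjusted p below 0.05, 7.28%; DESeq2 1 member, 0.176%). In cerebellar vGluT2+ IPs it was *Rasd2* (2.11%; 2 members at an unadjusted p below 0.05, 15.5%; DESeq2 1 member, 4.95%). The members' median log2 difference lay between -0.09 in cerebellar Gad2+ and -0.03 in cerebral vGluT2+ IPs, where the medians of all genes tested were 0.00 and -0.02.

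*Htt* was lower in HD in all 6 IP sets. Its control and HD levels (lowest, median, highest) were 46.4, 64.4 and 75.3 against 33.1, 46.2 and 61.2 CPM in cerebral Gad2+ IPs, and 50.5, 97.9 and 119 against 55.0, 65.3 and 70.7 in cerebellar Gad2+ IPs. PV+ IPs held 79.1, 92.8 and 111 in controls, and 65.1, 79.9, 61.6, 65.8 and 79.1 in the HD libraries. In both Gad2+ sets and in PV+ IPs the genotypes overlapped, yet every HD library was below the control median.

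In SST+ IPs, the set of the line that the study's description omits, *Htt* stood at 64.0, 93.1, 121, 113 and 88.9 CPM in controls (replicates 1, 2, 3, 4 and 6) and at 72.6, 57.6, 67.7 and 59.7 in HD. The control with 64.0 CPM lay within the HD range, and the other 4 lay above it. Control replicates 1 and 2 carry sample codes of the same series as all HD mice, and replicates 3, 4 and 6 codes of another. Against replicates 1 and 2 alone the log2 difference was -0.27 in place of -0.57 (adjusted p = 1 either way, and 1 under all 9 alternatives).

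In cerebral vGluT2+ IPs *Htt* was at 64.9, 78.0 and 87.4 CPM in controls and 47.0, 49.3 and 53.8 in HD, and in cerebellar vGluT2+ IPs at 84.7, 100, 99.2, 135 and 98.2 in controls and 64.7, 82.1 and 97.4 in HD. The genotypes did not overlap in the cerebral set, and in the cerebellar set 3 of 6 HD libraries lay below all controls. The log2 difference in the cerebral set was -0.63 (standard error 0.0849, adjusted p = 0.0444, over 10 alternatives 9.02e-09 to 0.430 with 2 called). Its call did not outlast the loss of single libraries: leaving out each in turn gave -0.66 to -0.58, with an adjusted p of 0.0333 without control replicate 5 and of 0.0758 (without control replicate 1) to 0.396 (without HD replicate 5) in the other 11 fits.

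**Figure D1:**
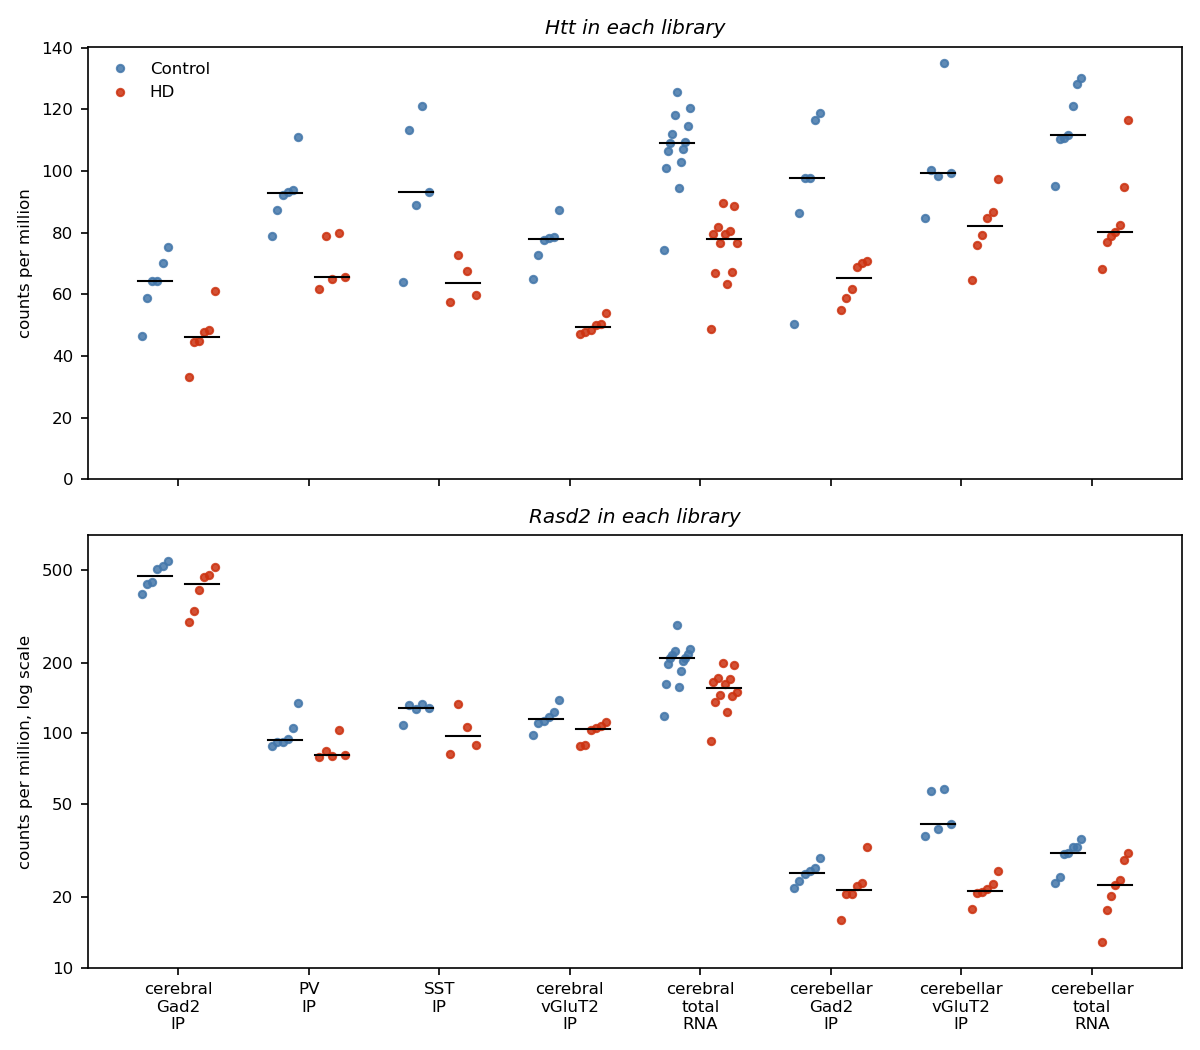
Level of *Htt* (linear axis) and *Rasd2* (log axis) in every library, in CPM, by sample set and genotype. Each point is 1 library and each bar the median of its group.

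Set by set, the log2 difference of *Htt* was -0.47 (standard error 0.143) in cerebral Gad2+, -0.42 (0.0933) in PV+, -0.57 (0.194) in SST+, -0.58 (0.178) in cerebellar Gad2+ IPs and -0.32 (0.131) in those of cerebellar vGluT2+ neurons. To use all sets at once, the mean of the 6 differences was fitted over all 67 IPs, each cell type weighing the same. This called 2 members (4.46% of all genes tested; 3 at an unadjusted p below 0.05), *Htt* with a mean log2 difference of -0.49 (standard error 0.0579, adjusted p = 2.14e-08, over 11 alternatives 1.35e-08 to 2.05e-05) and *Rasd2* with -0.37 (standard error 0.0557, adjusted p = 6.38e-06, over 11 alternatives 2.86e-06 to 0.0334). A log2 difference of -0.49 is a fall of the summed mRNA of both alleles. How it divides between the Q7 and the Q200 allele was not tested.

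Whether the HD difference varied among the 6 sets was tested for each gene. This called 1 member (0.546%), *Rasd2* (adjusted p = 0.00602, over 11 alternatives 0.00633 to 1), with *Hap1* at an unadjusted p of 0.0164 (adjusted p = 0.611) and *Htt* at an adjusted p of 1. No difference of *Htt* between cell types was found. The estimates for single sets ran from -0.63 to -0.32 with standard errors of 0.0849 to 0.194, so that unequal falls cannot be told apart from equal ones. For *Rasd2* the variation came with 1 set: without the cerebellar vGluT2+ IPs no difference among sets was called (adjusted p = 1), and its mean difference over the other 5 sets was -0.22 (adjusted p = 0.0334).

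**Figure D2:**
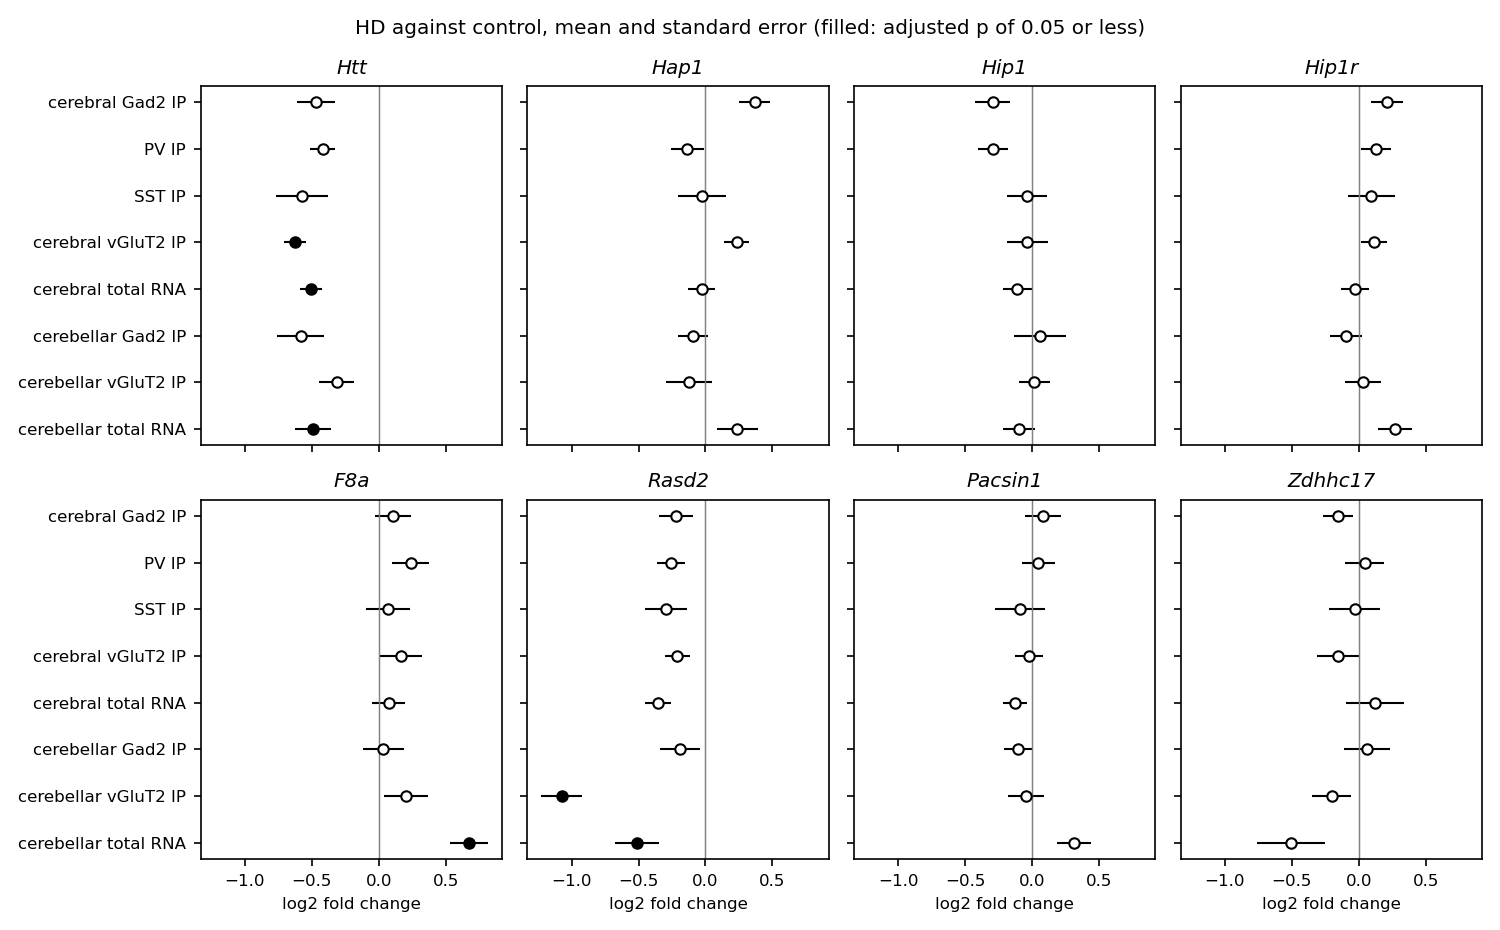
Log2 difference between HD and control of the 8 genes in each sample set, with the standard error. Filled points have an edgeR adjusted p of 0.05 or less.

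*Rasd2* in cerebellar vGluT2+ IPs stood at 56.9, 40.9, 38.9, 36.5 and 58.1 CPM in controls and at 17.8, 21.3 and 25.8 (lowest, median, highest) in HD. All 6 HD libraries lay below all controls. The log2 difference was -1.07 (standard error 0.154, adjusted p = 0.00243, over 9 alternatives 1.44e-08 to 0.0356 and called in each), and it stayed called in all 11 fits that left out 1 library (-1.14 to -0.95). Without the mice whose libraries differ in Y-linked mRNA it was -1.18 (adjusted p = 0.0356).

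The level of *Rasd2* in these cells is low. In controls it was 16.5 CPM per kb against 168 in cerebral Gad2+ IPs, and 0.60 log2 above cerebellar total RNA (exact permutation, adjusted p = 0.0173), a ratio that was not called over both genotypes (0.18). In the other sets control and HD libraries overlapped: 392, 471 and 546 against 298, 435 and 514 CPM (lowest, median, highest) in cerebral Gad2+ IPs, 98.1, 116 and 139 against 88.3, 104 and 112 in cerebral vGluT2+ IPs, and 21.9, 25.3 and 29.3 against 16.0, 21.4 and 32.6 in cerebellar Gad2+ IPs.

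Among the interneuron sets, PV+ IPs held 87.9, 93.3 and 135 CPM of *Rasd2* in controls and 84.3, 104, 79.6, 81.0 and 78.9 in HD. SST+ IPs held 133, 127, 132, 129 and 108 in controls and 88.7, 81.6, 107 and 133 in HD. HD medians were lower than control medians in all 6 sets, though outside the cerebellar vGluT2+ set none was called: the log2 differences were -0.22 in cerebral Gad2+, -0.26 in PV+, -0.29 in SST+, -0.21 in cerebral vGluT2+ IPs and -0.19 in the cerebellar Gad2+ set.

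Markers of cell types differed in the same libraries. In cerebellar vGluT2+ IPs the 4 granule cell markers summed to 4774, 4987, 5034, 5285 and 3806 CPM in controls and 3775, 3297, 4293, 2467, 3621 and 2179 in HD, *Zic1* being the most abundant. Of the 4, *Neurod1* was called (-0.87, adjusted p = 0.00914), while *Gabra6* (-0.37), *Etv1* (-0.54) and *Zic1* (-0.44) were not. The 7 genes used below as cerebral markers of striatal projection neurons (*Drd1*, *Drd2*, *Adora2a*, *Ppp1r1b*, *Rgs9*, *Penk* and *Tac1*) summed to 83.5, 78.2, 92.8, 76.3 and 136 CPM in controls and 54.0, 69.3, 74.7, 58.4, 70.3 and 56.3 in HD, with no overlap and with up to 1 of the 7 at 0 in a library. They did not move together: *Ppp1r1b*, the most abundant, was the 1 called (-0.62, adjusted p = 0.0180), and the others ran from -2.52 (*Tac1*) to 1.25 (*Adora2a*). Both ends rest on low or uneven levels. *Tac1* ran from 0.123 to 24.3 CPM in controls and from 0 to 3.43 in HD, and *Adora2a* averaged 0.227 CPM in controls and 0.519 in HD. In the cerebellum the 7 genes do not stand for striatal neurons. Whether a change in the cells caught by these IPs accounts for the fall of *Rasd2* was not tested.

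In the 4 cerebral IP sets the sum of the striatal markers had a lower median in HD. In cerebral Gad2+ IPs their sum was 4490, 5154 and 6082 CPM in controls and 2594, 3530 and 4588 in HD, with an overlap and with 0 of 7 called by edgeR (0.0279% of all genes). The paper, which used DESeq2, names *Drd1* and *Penk* among the genes lower in HD in these neurons. For cerebral neurons it also lists *Drd2* and *Ppp1r1b* as lower, and its in situ hybridisation found less *Ppp1r1b* in the HD striatum. In cerebral vGluT2+ IPs the sums were 316, 331 and 466 against 240, 249 and 293, with no overlap and 0 of 7 called by edgeR. *Rasd2* overlapped between genotypes in both. In PV+ IPs the sums were 232, 261 and 354 against 179, 202 and 263 (0 of 7 called by edgeR, *Drd2* and *Adora2a* by DESeq2), and in SST+ IPs 358, 491 and 563 against 323, 362 and 475 (0 of 7 called by edgeR and by DESeq2), both with an overlap. In the mean over the IP sets, where *Rasd2* was called, *Ppp1r1b* (-0.44, adjusted p = 0.000990) and *Penk* (-0.41, 0.00109) were called lower too, and the 5 other markers were not.

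The adaptor *Hap1* had the largest positive difference of the members in a cerebral IP set, without a call. In cerebral Gad2+ IPs its levels were 320, 362 and 420 CPM in controls and 353, 498 and 564 in HD, 4 of 6 HD libraries lying above all controls (log2 difference 0.37, standard error 0.114, unadjusted p = 0.00605, adjusted p = 0.477, over 8 alternatives 0.166 to 0.694). In cerebral vGluT2+ IPs they were 213, 231 and 295 against 261, 274 and 335 (0.23, adjusted p = 0.677). In PV+, SST+, cerebellar Gad2+ and cerebellar vGluT2+ IPs the log2 differences were -0.13, -0.02, -0.09 and -0.12.

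*Hip1* was lower in 2 GABAergic sets, likewise without a call. It stood at 11.3, 13.6 and 15.1 CPM in control and 9.52, 10.6 and 13.6 in HD cerebral Gad2+ IPs (-0.29, unadjusted p = 0.0407, adjusted p = 0.536), and at 13.6, 15.8 and 21.5 in control and 12.5, 13.7, 12.1, 14.7 and 15 in HD PV+ IPs (-0.29, unadjusted p = 0.0229, adjusted p = 1). In SST+, cerebral vGluT2+, cerebellar Gad2+ and cerebellar vGluT2+ IPs its log2 differences were -0.04, -0.03, 0.06 and 0.02.

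The remaining 4 genes were not called by edgeR in any IP set. The log2 differences in cerebral Gad2+, PV+, SST+, cerebral vGluT2+, cerebellar Gad2+ and cerebellar vGluT2+ IPs were 0.21, 0.13, 0.09, 0.11, -0.09 and 0.03 for *Hip1r*. In the same order they were 0.11, 0.24, 0.07, 0.16, 0.03 and 0.21 for *F8a*, whose product links huntingtin to the endosomal GTPase Rab5. *F8a* had the same sign in all 6 sets, with a mean of 0.14 (unadjusted p = 0.0389, adjusted p = 0.222, over 11 alternatives 0.0694 to 0.386). For *Pacsin1* the differences were 0.08, 0.05, -0.09, -0.02, -0.11 and -0.04, and for *Zdhhc17* -0.15, 0.04, -0.03, -0.16, 0.06 and -0.20.

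Total RNA holds the mRNA of all cells of a region, so a lower level there can be fewer cells or less RNA per cell, and these cannot be told apart. In cerebral total RNA, fitted with the line as a covariate, 1 member was called (0.645%; 2 at an unadjusted p below 0.05, 7.03%; 2 by DESeq2, 1.43%), and in cerebellar total RNA 3 members (24.5%; 4 at an unadjusted p below 0.05, 44.4%; 3 by DESeq2, 34.4%). A call in cerebellar total RNA therefore sets a gene apart less than one in the cerebrum.

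*Htt* in cerebral total RNA was at 94.6, 121 and 112 CPM in control and 66.9, 76.6 and 81.9 in HD mice of the Gad2 line, at 118, 101 and 107 against 48.8, 79.6 and 63.3 in the PV line, at 74.3, 103, 109 and 109 against 67.1, 79.6 and 76.6 in the SST line, and at 115, 107 and 126 against 88.6, 80.5 and 89.6 in the vGluT2 line. The genotypes overlapped only in the SST line, through the control with 74.3 CPM. The log2 difference was -0.50 (standard error 0.0826, adjusted p = 0.00185, over 16 alternatives 6.68e-06 to 1 with 11 called), and it stayed called in all 25 fits that left out 1 library (-0.54 to -0.45, adjusted p 0.000473 to 0.00593). The 5 alternatives without a call have fewer libraries: the 4 lines alone (-0.54 in Gad2, -0.73 in PV, -0.41 in SST and -0.35 in vGluT2) and the fit without the Gad2 line (-0.49, adjusted p = 0.0636).

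*Rasd2* in cerebral total RNA had control levels of 119, 210 and 290 CPM and HD levels of 93.1, 156 and 199. The log2 difference was -0.36 (standard error 0.0982, unadjusted p = 0.00143, adjusted p = 0.120), and DESeq2 called it (adjusted p = 0.0339; range over 16 alternatives 0.00382 to 1, 2 called). Without control Gad2 line replicate 1 it was called at -0.39 (adjusted p = 0.0490), and without HD Gad2 line replicate 3 at -0.41 (adjusted p = 0.0297). The sum of the striatal markers had a lower median in HD in the same samples, *Ppp1r1b* being the most abundant. It was 651, 1166 and 1822 CPM in controls and 407, 683 and 1067 in HD. Of the 7, 4 were called lower (*Drd2* -0.52, *Adora2a* -0.77, *Rgs9* -0.53 and *Penk* -0.80; 0.645% of all genes). The others were not called, the highest being *Tac1* (0.06). Of markers of other cell types *Avp* was called (-1.77). Whether the share of striatal tissue in these samples differed was not tested.

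In cerebellar total RNA *Htt* was at 121, 128 and 110 CPM in control and 82.7, 79.1 and 94.7 in HD mice of the Gad2 line, and at 112, 111, 130 and 95.3 against 117, 76.9, 68.3 and 80.4 in the vGluT2 line. All HD libraries but the 1 with 117 CPM (vGluT2 line replicate 1) lay below all controls. The log2 difference was -0.49 (standard error 0.132, adjusted p = 0.0301, over 10 alternatives 0.00577 to 1 with 7 called). Leaving out 1 library moved the adjusted p across 0.05 in 9 of 14 fits, with differences of -0.60 to -0.43 and an adjusted p of 0.00479 to 0.0683, the highest without HD vGluT2 line replicate 2.

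*F8a* was the 1 member called higher in HD with all libraries of a set, in cerebellar total RNA. In the Gad2 line it stood at 16.7, 19.3 and 24.5 CPM in control and 27.3, 30.7 and 20.5 in HD cerebellar total RNA, and in the vGluT2 line at 14.0, 18.0, 20.6 and 14.3 against 28.8, 37.7, 34.1 and 36.1. The genotypes did not overlap in the vGluT2 line, and 6 of 7 HD libraries lay above all controls (24.5% of all genes were called). The log2 difference was 0.68 (standard error 0.142, adjusted p = 0.0237, over 10 alternatives 0.000798 to 1 with 7 called). Of 14 fits without 1 library 6 kept the call (0.61 to 0.76, adjusted p 0.00150 to 0.0623, the highest without control vGluT2 line replicate 1). Without HD Gad2 line replicate 3 *Hip1r* (0.35, adjusted p = 0.0185) and *Pacsin1* (0.38, 0.0151) were called higher as well and *Zdhhc17* lower (-0.68, 0.0233), and *Pacsin1* also without control Gad2 line replicate 3 (0.35, 0.0483).

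*Rasd2* in cerebellar total RNA was at 35.4, 31.0 and 32.7 CPM in control and 17.6, 23.7 and 12.8 in HD mice of the Gad2 line, and at 30.5, 23.0, 24.4 and 32.8 against 30.8, 22.6, 28.8 and 20.3 in the vGluT2 line. The genotypes were apart in the Gad2 line and overlapped in the vGluT2 line. The log2 difference was -0.51 (standard error 0.162, adjusted p = 0.0385, over 10 alternatives 0.0174 to 1 with 6 called), called in 4 of 14 fits without 1 library (-0.60 to -0.42, adjusted p 0.0277 to 0.0823, the highest without control vGluT2 line replicate 4).

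The lines also differed in the whole of cerebellar total RNA. Without the Gad2 line 51.7% of all genes were called and 5 members: *Htt* -0.51 (adjusted p = 0.0365), *Hip1r* 0.44 (0.0226), *F8a* 0.90 (0.000835), *Pacsin1* 0.55 (0.00404) and *Zdhhc17* -0.88 (0.0221). Without the vGluT2 line 0.0% of genes and 0 members were called by edgeR (*Htt* -0.48, *F8a* 0.37, *Rasd2* -0.88). In the vGluT2 line *Hap1* (66.4, 79.0, 80.0 and 116 CPM in control, 148, 119, 135 and 117 in HD), *Hip1r* (62.2, 71.0, 79.0 and 58.5 against 112, 82.6, 113 and 92.4) and *Pacsin1* (400, 427, 503 and 369 against 756, 583, 702 and 675) had no overlap, all higher in HD. *Zdhhc17* (122, 110, 88.4 and 122 against 32.6, 75.7, 62.4 and 94.7) overlapped through the HD library with 94.7.

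Without the 3 mice whose libraries differ in Y-linked mRNA, *Htt* was not called in cerebral vGluT2+ IPs (-0.61, adjusted p = 0.430) and stayed called in cerebral total RNA (-0.52, adjusted p = 0.00310) and in the mean over IPs (-0.47, adjusted p = 2.24e-06). *Rasd2* stayed called in the mean (-0.37, adjusted p = 9.92e-05) and among the sets (adjusted p = 0.0295). In cerebellar total RNA 0 of the 8 were called by edgeR without these mice: *Htt* -0.49 (adjusted p = 0.0665), *F8a* 0.68 (0.0618) and *Rasd2* -0.58 (0.0650). Why these calls were lost was not tested.

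The balance of long and short mRNAs differed between the genotypes in 1 line of cerebellar total RNA. A length index was taken as the median deviation of mRNAs over 5000 nucleotides (3201 genes) minus that of mRNAs under 1500 (1975 genes). Deviations were those of log2 (CPM + 1) from the mean of the libraries of the set, so the index is relative to that set. The index was 0.19 to 0.53 in control and -0.71 to -0.25 in HD cerebellar total RNA of the vGluT2 line. The index separated the genotypes completely there. In the Gad2 line it was -0.16 to 0.64 in control and -0.56 to 0.57 in HD, with medians of -0.16 and -0.15. With it as a covariate 0 members (0.587% of all genes) were called by edgeR in cerebellar total RNA: *Htt* -0.33 (adjusted p = 0.348), *F8a* 0.46 (0.220) and *Rasd2* -0.76 (0.0824). In cerebral total RNA 2 were called with it (3.82%), *Htt* and *Rasd2*. What sets the index was not tested.

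Cell type markers in cerebellar total RNA moved too, where 24.5% of all genes were called. The 3 Purkinje markers summed to 2111, 2267 and 2472 CPM in controls and 1283, 1842 and 1932 in HD without overlap, *Car8* being the most abundant, and 1 of 3 was called (*Calb1* -0.56). The 4 oligodendrocyte markers summed to 2467, 3134 and 3584 against 2145, 3021 and 4213, *Mbp* being the most abundant, with 2 of 4 called (*Mobp* -1.05 and *Cnp* 0.54). Markers of a cell type did not all move together. *Gad1* (-0.35) and *Gad2* (-1.001) were called lower and *Slc32a1* (0.20) was not called, and *Slc17a7* was called higher (0.57) with *Slc17a6* at -1.32, not called. Of 5 astrocyte markers *Aqp4* was called lower (-1.02), the others running from -0.26 to 0.30, and of 5 microglial markers *Tmem119* (0.66) and *C1qa* (0.60) were called higher, the others running from -0.33 to 0.23. The 4 granule cell markers were all lower and not called (-0.76 to -0.24), and *Adora2a* was called higher (0.76). Whether these shifts go with those of *Htt*, *F8a* and *Rasd2* was not tested.

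Around the members stand 7 lists of 102 genes: paralogs (4 genes), Hap1 and motor transport (18), Hip1 and clathrin endocytosis (24), Rab5 proteins bound through F8a (3), Rasd2 with sumoylation and mTOR (15), DHHC palmitoyltransferases (19) and other huntingtin-binding proteins (19). In the IP sets few of them were called, as was so for all genes (0.0% to 2.11% called). In cerebral Gad2+ IPs 0 were called by edgeR (13 at an unadjusted p below 0.05, 0 by DESeq2), in PV+ 0 (4 and 0), in SST+ 0 (1 and 0), in cerebral vGluT2+ 0 of 101 tested (8 and 1) and in cerebellar Gad2+ IPs 0 (2 and 0). Of the lists in cerebellar vGluT2+ IPs only *Trip10*, which encodes a huntingtin-binding protein of membrane curvature, rose by 0.92 (adjusted p = 0.0243; 12 at an unadjusted p below 0.05, 2 by DESeq2).

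The medians of the log2 difference over the 102 genes were -0.01, 0.01, 0.00, -0.06, 0.01 and -0.02 in these 6 sets, where those of all genes tested were -0.01, 0.00, 0.01, -0.02, 0.00 and -0.01. The mean over the IP sets gave 7 calls (6.86%, against 4.46% of all genes). *Rasd1*, the paralog of *Rasd2*, fell (-0.41, adjusted p = 0.000367), as did *Kalrn* (-0.30, 0.0258) and *Ntrk2* (-0.20, 0.00245) of the motor list and *Zdhhc15* (-0.60, 0.0265). *Gnai2* of the Rasd2 list rose by 0.18 (0.0345), *Zdhhc16* by 0.17 (0.0403) and *Trip10* by 0.32 (0.0111). With size factors of DESeq2 *Gnai2* and *Zdhhc16* were not called. The difference among the sets called 0 of 102 (3 at an unadjusted p below 0.05). DESeq2 was not run for the mean and for the difference.

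In cerebral total RNA only *Rasd1* was called among the 102 genes (-0.48, adjusted p = 0.0496; 2 at an unadjusted p below 0.05, 2 by DESeq2). In cerebellar total RNA 32 were called, 21 up and 11 down (31.4%, against 24.5% of all genes). Without the vGluT2 line 0.0% of all genes were called by edgeR, and so no list gene. With the length index as a covariate 0.587% of all genes were called. In the fit of both lines the clathrin list had 6 up and 2 down (*Itsn2* -1.14, *Eps15* -0.77 and *Ap2a1* 0.61 the largest; median 0.17), the motor list 1 and 5 (*Kif5b* -1.25, *Kif5c* -1.21, *Itpr1* -0.93; median -0.12) and the palmitoyltransferases 4 and 2 (*Zdhhc21* -1.26, *Zdhhc20* -0.86, *Zdhhc9* 0.35; median 0.17). The Rasd2 list had 5 and 0 (*Gnai2* 0.61, *Pias3* 0.49, *Sumo3* 0.44; median 0.02), the Rab5 genes 2 and 0 (*Rab5c* 0.47, *Rab5b* 0.39; median 0.39), other huntingtin-binding proteins 3 and 2 (*Setd2* -1.36, *Grip1* -0.70, *Trip10* 0.59; median -0.16), and the paralogs 0 (median -0.28). Calls were spread over 6 of the 7 lists.

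The lists were also compared between IP and total RNA. Of 102, 75 were called in cerebral Gad2+ (38 up, 37 down), 73 in PV+ (42 and 31), 75 in SST+ (39 and 36), 77 in cerebral vGluT2+ IPs (50 and 27), 69 in cerebellar Gad2+ IPs (37 and 32) and 76 in those of cerebellar vGluT2+ neurons (44 and 32). These are 73.5%, 71.6%, 73.5%, 75.5%, 67.6% and 74.5%, against 68.0%, 76.2%, 69.7%, 68.5%, 67.4% and 68.3% of all genes. The medians were 0.03, 0.10, 0.03, 0.21, 0.06 and 0.16, against 0.04, -0.01, -0.02, 0.03, 0.04 and 0.00 for all genes. Whether the lists differ from other genes in this was not tested. Only the Rab5 list was the same in each: *Rab5a* was enriched in all 6 sets (0.59, 0.91, 0.85, 0.59, 0.87 and 0.41), and *Rab5b* and *Rab5c* were depleted in all, the lowest ratios being -0.55, -0.52, -0.43, -0.72, -0.45 and -0.58.

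The ends of each other list are given in the order cerebral Gad2+, PV+, SST+, cerebral vGluT2+, cerebellar Gad2+ and cerebellar vGluT2+ IPs. Among the paralogs, of which 4, 4, 3, 4, 4 and 4 were called, the highest ratios were *Pacsin2* 1.04, 2.05 and 0.67, *Zdhhc13* 0.84, *Pacsin2* 1.43 and *Zdhhc13* 0.46, and the lowest *Pacsin3* -1.11, *Rasd1* -0.81 and -0.48, *Pacsin3* -0.23 and -0.33 and *Rasd1* -0.72. In the motor list (16, 17, 14, 15, 13 and 14 called) the highest were the kinesin gene *Kif5c* 1.33, 2.36 and 2.43, *Bdnf* 1.56, *Itpr1* 2.41 and *Bdnf* 1.35, and the lowest *Bdnf* -1.94 and -0.73, *Klc2* -0.36, *Kif5a* -0.77, *Bdnf* -1.58 and *Kalrn* -1.23. *Bdnf*, whose transport huntingtin serves, was thus the highest of its list in vGluT2+ IPs of both regions and the lowest in 3 GABAergic sets.

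In the clathrin list (13, 15, 19, 14, 13 and 18 called) the highest ratios were *Dnm3* 0.88, *Synj1* 2.34 and 2.28, *Cltc* 1.12 and *Synj1* 1.14 and 1.02, and the lowest *Dnm2* -1.17, *Epn2* -1.58 and -0.84, *Dnm2* -1.48, *Epn2* -1.66 and *Sh3gl3* -0.98. In the Rasd2 list (12, 12, 10, 12, 6 and 9 called) the highest were *Gnai3* in PV+ (0.81) and SST+ (1.10), *Rheb* in cerebellar Gad2+ (0.98) and *Uba2* in cerebellar vGluT2+ IPs (0.81). *Gnai2* was the lowest of that list in every set (-1.46, -1.98, -1.14, -1.53, -2.07 and -1.29).

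Among the palmitoyltransferases (9, 11, 13, 13, 15 and 14 called) the highest were *Zdhhc21* 0.67, 1.47 and 1.59, *Zdhhc23* 1.13 and 1.25 and *Zdhhc22* 0.66, and the lowest *Zdhhc9* -0.87, *Zdhhc12* -2.20 and -1.53, *Zdhhc9* -0.68, *Zdhhc2* -2.28 and *Zdhhc23* -1.88. Among the other huntingtin-binding proteins (18, 11, 13, 16, 15 and 14 called) the highest were *Grip1* 1.29, *Setd2* 1.73, 1.95 and 1.26, *Grip1* 1.96 and *Setd2* 1.45, and the lowest *Cbs* -2.94, -1.68, -1.28 and -4.09, *Sp1* -1.46 and *Casp6* -2.56. *Cbs*, an enzyme made largely in astrocytes, was the lowest in all 4 cerebral sets. Between cell types and regions 40, 67, 39, 71, 64, 71 and 51 of the genes were called in the order of the 7 comparisons above (39.6%, 65.7%, 38.2%, 69.6%, 62.7%, 70.3% and 50% of those tested, against 41.5%, 67.8%, 38.3%, 69.3%, 65.6%, 72.6% and 54.8% of all genes).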

How the data were processed

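Per the labels, RiboTag IPs and total RNA were sequenced from stranded mRNA libraries (TruSeq). The authors deposited expected counts per gene, estimated with Salmon after STAR alignment to GRCm38.p6 in nf-core/rnaseq. Of the values 8.58% were not whole, and all were rounded. The table also holds 92 spike-ins (at most 4.45% of a library) and the tag, both left out. Gene types, positions and mRNA lengths came from GENCODE M21, which matched 55141 of the 55401 genes.

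Genes that code for proteins and averaged over 10 counts across the compared libraries were tested with edgeR 4.0.16 (TMM, quasi-likelihood) in R 4.3.3 and called at a Benjamini-Hochberg adjusted p of 0.05 or less over all genes tested. Total RNA was fitted with the line, and comparisons between sets with the genotype, as covariates. Levels are TMM-normalised CPM. The order of levels used exact permutation tests on log2 (CPM + 0.5). Tables and plots were made in Python 3.11.15 with numpy 2.4.6, pandas 2.3.3, scipy 1.17.1 and matplotlib 3.10.9.

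Alternatives tried were DESeq2 1.42.0, its size factors, no filter, all gene types, the replicate or mouse as a block, limma 3.58.1 (voom with the mouse as a random block), *Xist* or Y-linked mRNA or the length index as a covariate, and fits without single libraries, lines, sets or re-sequenced libraries. Counts of replicates differed beyond sampling noise (lowest chi-square per degree of freedom between a pair 8.37). The fits were tested on simulated data.

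Genes named are the 8 members, cell type markers, the 3 genes most like each, called genes of the 7 lists (at most 3 per list, by size of change) and the highest and lowest of each list in IPs. A total of 4 genes (3 markers and 1 list gene) are not reported here: marker sums leave them out, while list counts include the list gene. Members and lists were chosen with earlier results of these data known.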

Additional observations from a re-analysis of the deposited data

Results flagged for a closer look

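Some single libraries lay far from the rest of their group, as judged by the gap to the nearest other library against the range of the group. This was so in 7 of 120 groups, where 6 are to be had by chance at the 1 in 20 used. *Hap1* was at 245 CPM in PV+ HD replicate 2 (the others 164 to 185), and *Rasd2* at 104 in the same library (78.9 to 84.3). *Rasd2* was at 135 in PV+ control replicate 6 (87.9 to 105), where *Hip1r* was at 96.8 (66.5 to 76.1). *Rasd2* was at 108 in SST+ control replicate 6 (127 to 133), *Hip1r* at 89.8 in cerebellar Gad2+ HD replicate 4 (74.2 to 78.8) and *Zdhhc17* at 65.8 in cerebral vGluT2+ control replicate 1 (116 to 131), a library of a mouse whose libraries differ in Y-linked mRNA. What sets these libraries apart was not tested.

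A difference between groups was flagged for *Rasd2*, whose HD effect differed among the IP types (adjusted p = 0.00602).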

How the results depend on the processing

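Compared were the log2 differences of *Htt*, and of other members where the unadjusted p was below 0.05 or an alternative called them. Of these 958 values over all alternatives, 848 stayed the same in direction and side of the threshold, 88 were weaker, 15 stronger and 7 reversed. Leaving out 1 library at a time gave 282 of these (238 the same, 38 weaker, 6 stronger). Alternatives with the length index, single cerebral lines, Y-linked mRNA, the fits without the mice whose libraries differ in it, and those without single total RNA libraries were chosen after seeing the data. Where a result changed, the cause was not tested.

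The call of *Htt* in cerebral vGluT2+ IPs (1 member called) was lost, leaving 0 members, under size factors of DESeq2, no low-count filter, all gene types, the *Xist* covariate, the replicate block (adjusted p = 0.213), the fit without the re-sequenced library, the Y-linked covariate and without the mice that differ in Y-linked mRNA. It was kept under DESeq2 and the length index. Leaving out single libraries gave 0 to 1 members. PV+ IPs had 1 member under DESeq2 in place of 0. Replicate numbers were not taken to pair HD with control: correlations between libraries of the same number were -0.28 to 0.50, and 11 of 29 correlated best with their own number. The replicate block changed no other call.

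In cerebral total RNA 2 members in place of 1 were called under DESeq2, with the length index, without control Gad2 line replicate 1 and without HD Gad2 line replicate 3, and 0 without the Gad2 line and in each line alone (Gad2, PV, SST, vGluT2). In cerebellar total RNA, 5 members in place of 3 were called without the Gad2 line, and 0 without the vGluT2 line, with the length index and without the mice that differ in Y-linked mRNA. Leaving out single cerebellar total RNA libraries gave 0 to 6 members. SST+ against PV+ IPs gave 2 in place of 4 in controls only. The difference among IP types gave 0 in place of 1 without the cerebellar vGluT2+ IPs.

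The 7 reversed values were of differences that were not called. Over all members and comparisons, without fits that left out 1 library, 62 of 1296 values reversed, and no called value was among them. *Pacsin1* in cerebellar total RNA became -0.00807 without the vGluT2 line, and *Zdhhc17* 0.0377 with the length index. *Htt* in PV+ IPs against total RNA became 0.0446 with total RNA of the same line and 0.10 with the mouse as a block, and in SST+ IPs 0.0102 with total RNA of the same line. *Htt* between SST+ and PV+ IPs became 0.0554 in controls only, and between cerebellar and cerebral total RNA -0.0353 with the mouse as a block.

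Of the 8 genes, *Htt* and *Rasd2* kept their fall over all IPs under all 11 alternatives. Limits: labels give no sex, and Y-linked mRNA was unevenly spread between the genotypes in some sets. Mouse codes of the SST+ controls are of 2 kinds, gene counts hide the alleles, and IPs hold mRNA of other cells.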
